A study of Rattus norvegicus with 6 samples.

Results

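Interferon-stimulated genes are the genes that cells switch on when an interferon binds its receptor. A fixed list of 38 of them was read out in rat back skin: every symbol on the list was looked up among the 34225 loci of the deposited count table, and all 38 were found, each at 1 locus. The list holds 4 sensors of viral nucleic acid, 4 transcription factors, 13 antiviral effectors, 3 genes of the ISG15 ubiquitin-like modifier pathway, 3 genes of the PARP9 complex and its relatives, 5 further genes induced by type I interferon, 3 interferon-induced GTPases and 3 genes of the immunoproteasome and peptide transport. After the filter on low counts 36 members could be tested; Oas2 and Oas3 stayed below it.

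All rats were of the outbred Sprague-Dawley strain, and each of the 3 groups had 2 libraries of back skin. The afatinib rats received oral afatinib, 30 mg/kg daily, up to the onset of a rash. The gefitinib rats received oral gefitinib, 80 mg/kg daily, likewise up to the onset of a rash. The third group was untreated, and the labels name no vehicle for it. Afatinib and gefitinib both inhibit the epidermal growth factor receptor (EGFR), a kinase that drives keratinocyte growth, and afatinib binds it covalently. The doses differ between the drugs and the days of treatment may differ too. The labels list the libraries of a group as separate samples without saying that each came from its own animal, so every p-value measures the spread between these samples, which may be technical. They give no age or sex.

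Type I interferons, such as interferon beta and the keratinocyte interferon kappa, act through the receptor chains IFNAR1 and IFNAR2 and the kinases JAK1 and TYK2. These kinases activate a transcription factor complex that contains STAT2 and IRF9 and binds the interferon-stimulated response element (ISRE) in promoters. Interferon gamma, made by T and NK cells, leads to the use of another promoter element, the gamma-activated site (GAS). Keratinocytes, skin macrophages and endothelial cells all answer interferons, and a raised interferon signature marks inflamed skin in cutaneous lupus. The roles given for genes here are those described for the human or mouse proteins.

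The promoter sequences show an element that many, though not all, of the members carry. Promoters were available from RefSeq (build GRCr8) for 29 of the 38 members, as windows of 250 bases before to 50 bases after the start of the gene. None was available for Ifit1, Ifit2, Isg15, Usp18, Mx2, Oas2, Ddx58, Dhx58 and Zbp1, so these were not searched. The ISRE core was searched as GAAA, any 2 bases and GAAA on both strands, with overlapping matches counted. It was found in 18 of the 29 member windows (62.1%) and in 1312 of all 33469 windows (3.92%). The GAS core, TTCNNNGAA, reads the same on both strands and was found in 8 of the 29 member windows (27.6%) and in 2970 of all windows (8.87%). Such a match is a description of the letters and does not show a bound site. Windows with the ISRE core included those of Bst2, Gbp2, Ifih1, Oas1a, Psmb8 and Tap1, and windows without it included those of Irf1, Irf9, Mx1 and Stat2. The 250 bases before the start are printed below for 4 of the 29 members searched. These had a match and, among members with a match, the smallest unadjusted p in any comparison. They are written 5′ to 3′ on the strand of the gene, and capitals mark the ISRE core in either orientation.
Ifit3, GRCr8, chr1:241527076-241527325, plus strand: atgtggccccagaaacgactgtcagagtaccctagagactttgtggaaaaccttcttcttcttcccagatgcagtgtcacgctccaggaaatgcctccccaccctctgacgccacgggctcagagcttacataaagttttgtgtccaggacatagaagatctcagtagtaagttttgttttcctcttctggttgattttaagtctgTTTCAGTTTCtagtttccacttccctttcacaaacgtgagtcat
Gbp5, GRCr8, chr2:233910749-233910998, plus strand: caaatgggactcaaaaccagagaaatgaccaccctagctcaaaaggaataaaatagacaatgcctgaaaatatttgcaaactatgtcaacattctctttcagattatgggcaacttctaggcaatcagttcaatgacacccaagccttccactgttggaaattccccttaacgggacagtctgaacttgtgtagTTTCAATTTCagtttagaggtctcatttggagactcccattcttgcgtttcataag
Ifi27, GRCr8, chr6:128355062-128355311, plus strand: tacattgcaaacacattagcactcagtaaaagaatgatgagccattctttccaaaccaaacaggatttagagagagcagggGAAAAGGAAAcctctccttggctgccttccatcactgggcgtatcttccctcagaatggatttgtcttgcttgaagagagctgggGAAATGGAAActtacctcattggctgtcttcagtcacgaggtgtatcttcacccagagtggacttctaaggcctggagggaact
Irf7, GRCr8, chr1:205800024-205800273, minus strand: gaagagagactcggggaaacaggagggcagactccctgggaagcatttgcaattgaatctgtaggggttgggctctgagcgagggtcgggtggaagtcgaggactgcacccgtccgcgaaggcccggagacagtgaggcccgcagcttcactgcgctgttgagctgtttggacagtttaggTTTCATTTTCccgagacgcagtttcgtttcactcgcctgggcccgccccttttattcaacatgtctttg
The core begins 44 bases before the start in Ifit3, 56 in Gbp5 and 69 in Irf7, in each case on the opposite strand. Ifi27 holds 2 matches on its own strand, 169 and 84 bases before the start. Against untreated skin the log2 fold changes of Ifit3, Gbp5, Ifi27 and Irf7 were 1.32, −0.16, −0.33 and 1.01 with afatinib. With gefitinib they were −0.17, −1.35, −1.24 and −0.11, all negative. None of these changes passed the test described next.

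Library totals ran from 17206456 to 22086673 counts. Markers of keratinocytes were present in every library, as summed CPM (counts scaled to a common library depth) over 9 genes. They reached 2878 and 5071 CPM with afatinib, 3618 and 3621 CPM with gefitinib, and 1642 and 939 CPM in untreated skin. Skeletal muscle genes took 13.65% and 4.72% of the counts in the afatinib libraries, 4.36% and 7.65% in the gefitinib libraries, and 17.86% and 16.8% in the untreated libraries. Afatinib library 1 was near untreated skin in its muscle share. Across all genes it also correlated more with the untreated libraries (r = 0.935 and 0.939) than with afatinib library 2 (r = 0.925). Where leaving it out changes an afatinib call, the value without it is given, and the lone afatinib library is then assumed to vary like the other groups. CPM values are scaled by the trimmed mean of M-values (TMM), which is 1 factor per library and leaves differences in tissue makeup in place. Differences were tested with edgeR's quasi-likelihood test over 16398 genes, with 1 fit for the 3 groups and Benjamini-Hochberg adjusted p below 0.05 as the threshold.

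The interferon-stimulated genes did not rise as a group in rash skin when set beside all genes tested. Of the 36 members tested, Ifit1 alone rose with afatinib and with gefitinib, and Ifit2 alone fell with gefitinib. Most members had lower values in gefitinib skin than in untreated skin without passing the test, while in afatinib skin they lay close to untreated skin on balance. In bulk skin, fewer responding cells and less RNA per cell cannot be told apart. The values of all members by library are shown in the plot of members and in the map of members by role.

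**Figure D1:**
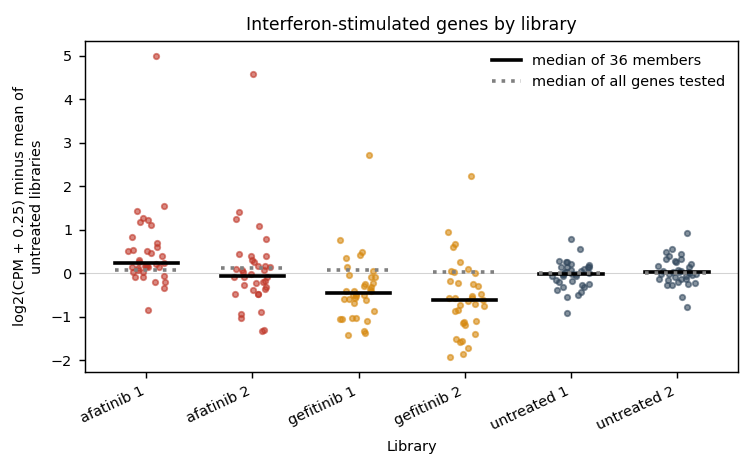
Level of each of the 36 tested members in each library, as log2(CPM + 0.25) minus the mean of the untreated libraries (vertical axis, log2 units). Points are genes, the solid line is the median of the members and the dotted line the median of all 16398 genes tested. Both lines come from edgeR's log2 CPM, which adds its own prior count, so they are not exact medians of the points. The member medians were 0.24 and −0.05 in the afatinib libraries, −0.47 and −0.61 in the gefitinib libraries, and −0.02 and 0.02 in the untreated libraries; the far points at the top are Ifit1.

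**Figure D2:**
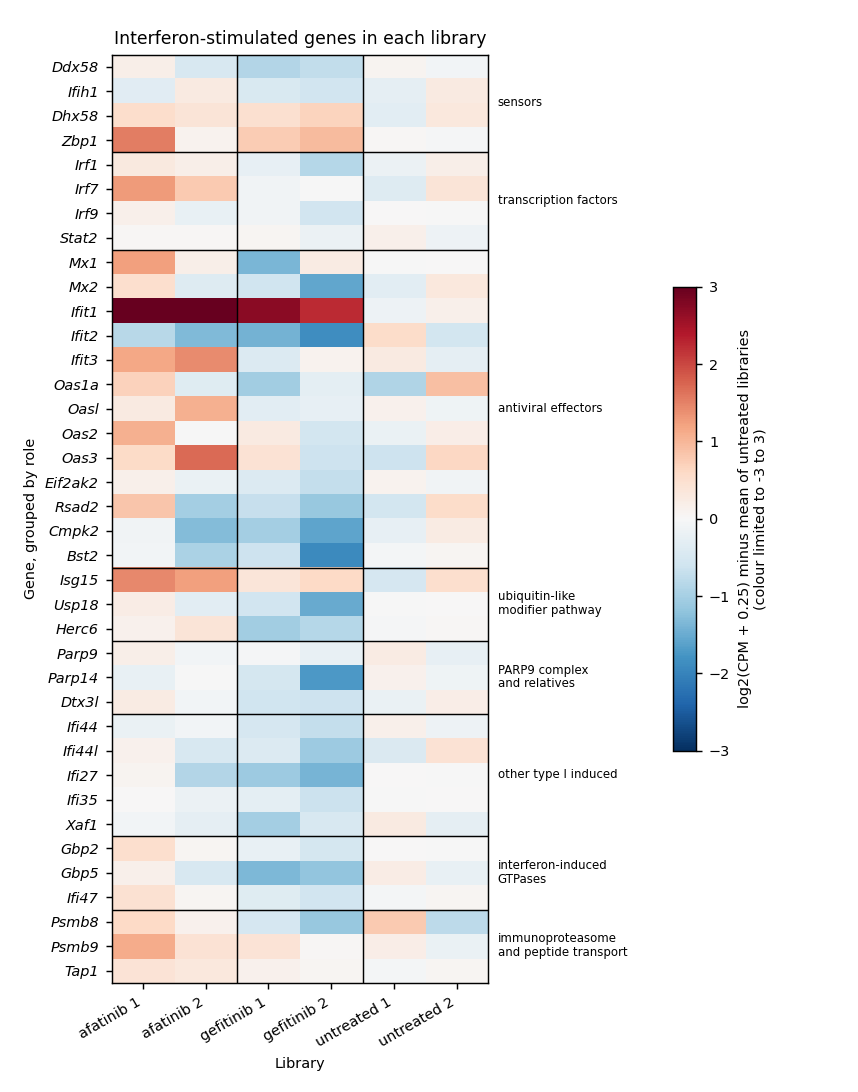
Map of all 38 members by role (rows) and library (columns), coloured by log2(CPM + 0.25) minus the mean of the untreated libraries, with the colour limited to 3 log2 units either way. Ifit1 is the darkest row with both drugs, blue (lower) cells are most frequent in the gefitinib columns, and Ifit2 is blue in all 4 treated libraries.

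Levels between genes can be set side by side per length, on the deposited FPKM scale (fragments scaled by transcript length and library depth). Ifi27, a small membrane protein of mitochondria and the nuclear envelope, stood far above the other members. It averaged 277.8 FPKM with afatinib, 150.6 FPKM with gefitinib and 364.7 FPKM in untreated skin, and held from 57.15% to 69.5% of the summed FPKM of the 38 members in a library. Bst2, or tetherin, which holds budding virus at the cell surface, was next with 26.6, 16.8 and 38.1 FPKM in the same order of groups. The median member stood at 2.56 FPKM with afatinib, 1.26 FPKM with gefitinib and 2.22 FPKM in untreated skin. At least 1 FPKM was reached by 31, 20 and 30 of the 38 members in these groups. The list was thus transcribed in untreated skin already, with a few genes at the bottom of the scale: Ifit1 at 0.0143 FPKM and Zbp1 at 0.0485 FPKM.

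Within a group the libraries differed for a typical member by a factor of 1.38 with afatinib, 1.26 with gefitinib and 1.27 in untreated skin (median ratio of the higher to the lower library). In each group 5 members differed at least 2-fold between the libraries. With afatinib these were Zbp1, Mx1, Oas1a, Rsad2 and Cmpk2, and afatinib library 1 was the higher one for 30 of the 36 members.

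Afatinib against untreated skin asks whether rash skin after this drug carries an interferon signature. Ifit1, whose product binds viral RNA that lacks the host cap modification, rose: it is the only member of the 36 to pass upward (2.78%), where 3.6% of all genes passed upward. No member passed downward (0%), where 0.372% of all genes did; DESeq2 and limma-voom also called 0 members lower. At an unadjusted p below 0.05 stood 6 members, 5 with positive changes (Ifit1, Ifit3, Irf7, Isg15 and Psmb9) and Ifit2 with a negative one. Among all genes 3591 stood there, 2622 positive and 969 negative. The members had a median log2 fold change of 0.05, against 0.09 for all genes tested, and 20 of 36 were positive. At least 2-fold differences in either direction were seen for 6 members (16.7%), where 25.1% of all genes differed that much. Ifit2 was the only one of these 6 that was lower. Both afatinib libraries lay above both untreated libraries for 14 members (38.9%), where 31.5% of all genes did, and below for Ifit2 and Bst2 (5.56%), where 21.8% of all genes did. With counts scaled by library size only, 25 members lay above (69.4%, where 53.4% of all genes did) and 0 below (where 6.53% of all genes did), the member median was 0.63, and the median of all genes was 0.71. Without afatinib library 1 the member median was −0.07, with 17 of 37 positive, and Ifit1 stayed the member that passed.

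Gefitinib against untreated skin asks the same of the other drug. Ifit1 rose (1 of 36, 2.78%, where 12.3% of all genes passed upward) and Ifit2, a partner of Ifit1 in RNA-binding complexes, fell (1 of 36, where 5.45% of all genes passed downward). The members had a median log2 fold change of −0.57, against 0.04 for all genes, and 6 of 36 were positive. Both gefitinib libraries lay below both untreated libraries for 22 members (61.1%), where 33.9% of all genes did, and above for Dhx58, Zbp1, Ifit1 and Tap1 (11.1%), where 38.8% of all genes did. That downward tilt depends on the scaling: with library size only, 5 members lay below (13.9%, where 12.8% of all genes did) and 11 above (30.6%, where 60.6% did), and the member median was 0.12, which is 0.61 below the median of all genes, itself at 0.73. With the size factors of DESeq2, 23 lay below (63.9%, where 35.2% of all genes did) and 3 above (8.33%, where 37.4% did). At least 2-fold differences were seen for 14 members (38.9%), close to the 38.5% of all genes. At an unadjusted p below 0.05 stood 7 members, namely Ifit1 with a positive change and 6 with negative ones, and 6106 of all genes, 3504 positive and 2602 negative.

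For the mean of both drugs against untreated skin the calls were Ifit1 upward (where 11% of all genes passed) and Ifit2 downward (where 4.93% did), with a member median of −0.29 and 10 of 36 positive. Since each drug is set against the same untreated libraries, the comparisons are not independent of each other.

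**Figure D3:**
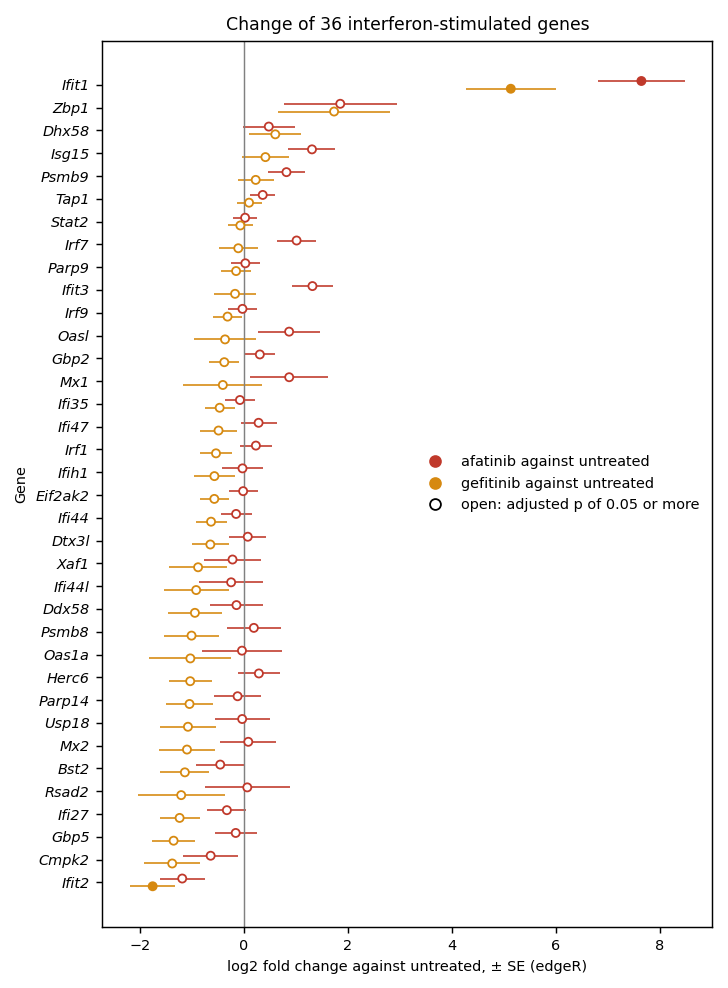
Log2 fold change of the 36 tested members against untreated skin (horizontal axis, ± SE from the fit) for afatinib and gefitinib, ordered by the gefitinib value. Filled points passed the test at an adjusted p below 0.05: Ifit1 with both drugs and Ifit2 with gefitinib; for 35 of the 36 genes the afatinib point lies to the right of the gefitinib point, Dhx58 being the exception.

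The antiviral effectors held both genes that passed. Ifit1 (ENSRNOG00000019050, chromosome 1, 252944103 to 252946170, plus strand, in the coordinates of the files, whose build the sources used here do not give) had 8.64 and 6.40 CPM in the afatinib libraries, 1.57 and 1.05 CPM in the gefitinib libraries, and 0 and 0.0582 CPM in the untreated libraries. The counts behind these values were 133 and 166 with afatinib, 40 and 24 with gefitinib, and 0 and 1 in untreated skin. The 3 groups did not overlap. Because the untreated group held 1 count, the change is given as the ratio of summed counts per TMM-scaled library size. This ratio was 229 with afatinib (95% exact interval 40.8 to 9074) and 41.9 with gefitinib (7.25 to 1680), where the intervals cover counting error only. The adjusted p was 0.0146 with afatinib and 0.015 with gefitinib in edgeR's quasi-likelihood test; the fitted log2 fold changes of 7.65 and 5.13 depend on the prior count. Without untreated library 1 or 2 the adjusted p was 0.129 or 0.106 with afatinib and 0.0934 or 0.0877 with gefitinib. Without untreated library 1, 7 genes of the whole table were called higher and 3 lower with gefitinib, and without untreated library 2, 0 were called.

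Ifit2 (ENSRNOG00000036604, chromosome 1, 252894663 to 252900726) went the other way. It had 12.5 and 8.87 CPM with afatinib, 8.35 and 6.04 CPM with gefitinib, and 33.3 and 15.4 CPM in untreated skin. All 4 treated libraries lay below both untreated libraries, and the untreated libraries differed at least 2-fold between themselves. The log2 fold change was −1.19 ± 0.43 with afatinib (SE; adjusted p = 0.166) and −1.76 ± 0.436 with gefitinib (adjusted p = 0.0364), both from edgeR. The call with gefitinib was lost with library size only (−1.04, adjusted p = 0.152), in limma-voom (adjusted p = 0.0503), and without gefitinib library 1 or 2 (adjusted p = 0.0927 or 0.165) or untreated library 1 or 2 (−1.09, adjusted p = 0.196, or −2.21, adjusted p = 0.087).

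Ifit3, which stabilises IFIT1 on RNA in human cells, sits between them. It had 9.81 and 11.6 CPM with afatinib, 3.10 and 4.55 CPM with gefitinib, and 5.19 and 3.43 CPM in untreated skin. Both afatinib libraries were above the other 4, and gefitinib and untreated libraries overlapped. With afatinib the log2 fold change was 1.32 ± 0.403 (adjusted p = 0.115 in edgeR; 0.048 in DESeq2), and with gefitinib it was −0.17 ± 0.401 (adjusted p = 0.777).

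The 3 Ifit genes lie in 51.5 kb of chromosome 1 together with Ifit1bl (ENSRNOG00000036603, 252914684 to 252922486, minus strand), a gene named as similar to Ifit1. It is no member and was chosen after its values were seen, because reads of near copies can be split or dropped in counting. Ifit1bl had 3.51 and 8.64 CPM with afatinib, 3.25 and 3.19 CPM with gefitinib, and 1.04 and 0.291 CPM in untreated skin. All 4 treated libraries were above both untreated ones; the log2 fold changes were 3.21 ± 0.728 with afatinib and 2.29 ± 0.716 with gefitinib (adjusted p = 0.0565 and 0.0647 in edgeR). Ifit1bl passed with both drugs in DESeq2 (adjusted p = 0.000515 and 0.0117), with library size only (0.0318 and 0.0387) and with no filter (0.00083 and 0.00834), and not in limma-voom. Without afatinib library 1 it passed with both drugs (3.71, adjusted p = 0.0134, and 2.30, adjusted p = 0.0311), and without afatinib library 2 with gefitinib alone (2.23, adjusted p = 0.0365). With the counts of Ifit1 and Ifit1bl summed to 1 feature, a choice made after seeing the data, the log2 fold changes were 4.31 with afatinib and 2.72 with gefitinib (adjusted p = 0.0257 and 0.02). Neighbouring genes of the cluster thus differed in direction in the same libraries.

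**Figure D4:**
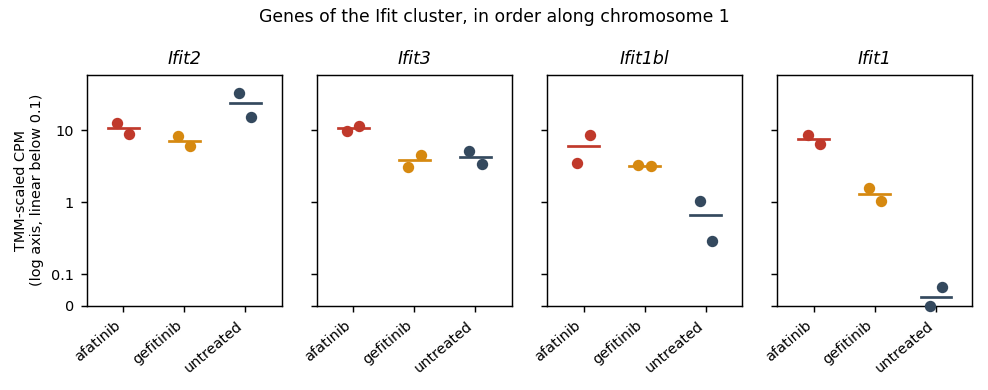
TMM-scaled CPM (log axis, linear below 0.1) of the 4 genes of the Ifit cluster in the 2 libraries of each group, ordered along chromosome 1. Points are libraries and lines group means: Ifit2 is highest in untreated skin (24.3 CPM), Ifit3 in afatinib skin (10.7 CPM), and Ifit1bl and Ifit1 are lowest in untreated skin (0.664 and 0.0291 CPM).

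The other effectors did not pass in the fit of the 3 groups after the filter. As lower with gefitinib, Bst2 passed with no filter, and Cmpk2 passed in a fit of the gefitinib and untreated groups alone. Bst2 had 29.9 and 16.2 CPM with afatinib, 20.5 and 8.14 CPM with gefitinib, and 30.4 and 32.8 CPM in untreated skin, with log2 fold changes of −0.46 and −1.14 (adjusted p = 0.6 and 0.128). Eif2ak2, the kinase PKR that stops translation when it senses double-stranded RNA, had 20.7 and 16.0 CPM with afatinib, 13.8 and 11.1 CPM with gefitinib, and 19.8 and 17.3 CPM in untreated skin. In both genes the gefitinib libraries lay below the untreated ones, while the afatinib libraries of Eif2ak2 spanned the untreated range. Mx1 and Mx2, dynamin-like GTPases that block incoming virus, had changes of 0.87 and 0.08 with afatinib and −0.41 and −1.10 with gefitinib. Oas1a and Oasl, of the oligoadenylate synthetase family, had changes of −0.04 and 0.87 with afatinib and −1.03 and −0.36 with gefitinib. Rsad2, which encodes viperin, and its neighbour Cmpk2, a nucleotide kinase, had changes of 0.06 and −0.64 with afatinib and −1.21 and −1.38 with gefitinib (adjusted p = 0.322 and 0.112 for the gefitinib values). Oas2 had counts of 8 and 3 with afatinib, 5 and 0 with gefitinib, and 1 and 3 in untreated skin. Oas3 had counts of 5 and 26, 7 and 0, and 0 and 6 in the same order; both were too low for a test.

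Among the sensors, Ifih1, which encodes MDA5, a detector of long double-stranded RNA, had 5.85 and 8.95 CPM with afatinib, 5.29 and 4.90 CPM with gefitinib, and 6.09 and 9.02 CPM in untreated skin. Ddx58, which encodes RIG-I, a detector of RNA ends, had 2.47 and 1.47 CPM with afatinib, 1.06 and 1.18 CPM with gefitinib, and 2.28 and 2.04 CPM in untreated skin. Both genes were lowest in the gefitinib libraries, and neither passed (log2 fold changes −0.57 and −0.94). Dhx58, which encodes the regulatory helicase LGP2, had changes of 0.48 with afatinib and 0.60 with gefitinib. Zbp1, a sensor of Z-form nucleic acid that can trigger necroptosis, had changes of 1.85 and 1.73 at counts of 2 in each untreated library, and its SE was above 1 in both comparisons.

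Among the transcription factors, Irf9, the DNA-binding part of the STAT complex, had 21.2 and 16.5 CPM with afatinib, 18 and 12.9 CPM with gefitinib, and 19.4 and 19.0 CPM in untreated skin. Irf1, an early factor of interferon gamma signalling, had 24 and 22 CPM with afatinib, 16.4 and 10.5 CPM with gefitinib, and 17.2 and 21.9 CPM in untreated skin. Irf7, which amplifies interferon alpha production, had 19.3 and 13.6 CPM with afatinib, 7.29 and 7.79 CPM with gefitinib, and 5.88 and 10.4 CPM in untreated skin. Irf1 and Irf7 were highest in the afatinib libraries; for Irf7 the log2 fold change was 1.01 ± 0.378 with afatinib (adjusted p = 0.176) and −0.11 ± 0.376 with gefitinib. Stat2 stood at 0.02 and −0.07. Irf7 overlaps the end of Phrf1 on the opposite strand, and the sources used here do not give the strand of counting, so some of its reads may belong to that gene.

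Of the modifier pathway, Isg15, the ubiquitin-like protein attached to targets after interferon, had 9.16 and 7.94 CPM with afatinib, 4.19 and 4.99 CPM with gefitinib, and 2.21 and 4.65 CPM in untreated skin. Both afatinib libraries were above the other 4, and the log2 fold change was 1.31 ± 0.452 with afatinib (adjusted p = 0.151) and 0.41 ± 0.448 with gefitinib (adjusted p = 0.524). Usp18, which removes ISG15 and damps the receptor, had 3.64 and 2.43 CPM with afatinib, 1.999 and 0.919 CPM with gefitinib, and 3.04 and 3.14 CPM in untreated skin, a change of −0.03 and −1.08 in the same order of drugs. Herc6, the rodent ligase for ISG15, stood at 0.29 and −1.03. The gene of the modifier was thus highest with afatinib, whereas those of its protease and its ligase were lowest with gefitinib, and none of the 3 passed.

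Parp9 had 20.5 and 17.1 CPM with afatinib, 17.7 and 15.5 CPM with gefitinib, and 21.6 and 15.3 CPM in untreated skin. Dtx3l, its ubiquitin ligase partner, had 8.38 and 6.63 CPM with afatinib, 4.59 and 4.51 CPM with gefitinib, and 6.09 and 8.15 CPM in untreated skin. Parp9 overlapped across the groups, and Dtx3l was lowest with gefitinib (−0.65, adjusted p = 0.227). Parp14, another mono-ADP-ribosyltransferase, stood at −0.12 with afatinib and −1.05 with gefitinib.

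Of the further genes induced by type I interferon, Ifi27 had 303 and 155 CPM with afatinib, 134 and 110 CPM with gefitinib, and 292 and 283 CPM in untreated skin. Afatinib library 1 was as high as untreated skin and library 2 was near the gefitinib libraries. The log2 fold change was −0.33 ± 0.378 with afatinib (adjusted p = 0.641) and −1.24 ± 0.383 with gefitinib (adjusted p = 0.0631). Ifi35 had 13.5 and 11.8 CPM with afatinib, 10.8 and 8.45 CPM with gefitinib, and 13.1 and 13.5 CPM in untreated skin. Ifi44, Ifi44l and Xaf1, a proapoptotic gene, had changes from −0.25 to −0.15 with afatinib and from −0.92 to −0.63 with gefitinib.

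Of the GTPases, which attack the membranes of intracellular pathogens, Gbp2 had 21.2 and 15.5 CPM with afatinib, 12.6 and 10.2 CPM with gefitinib, and 15.0 and 14.7 CPM in untreated skin. Ifi47 had 9.36 and 7.06 CPM with afatinib, 5.14 and 4.46 CPM with gefitinib, and 6.43 and 7.04 CPM in untreated skin. Both genes were highest with afatinib and lowest with gefitinib without overlap, and neither passed against untreated skin. Gbp5 had 7.80 and 4.97 CPM with afatinib, 2.63 and 2.93 CPM with gefitinib, and 8.23 and 5.99 CPM in untreated skin. Its log2 fold change was −0.16 ± 0.403 with afatinib and −1.35 ± 0.412 with gefitinib (adjusted p = 0.0609). Ifi27 and Gbp5 passed as lower with gefitinib in DESeq2 (adjusted p = 0.00895 and 0.0139), where 3 members with Ifit2 were called lower. They also passed with no filter, together with Ifit2 and Bst2. In a fit of the gefitinib and untreated groups alone they passed together with Ifit2 and Cmpk2.

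The immunoproteasome genes Psmb8 and Psmb9 encode inducible catalytic subunits that favour peptides for MHC class I. Psmb9 had 22.1 and 13.8 CPM with afatinib, 13.5 and 10.3 CPM with gefitinib, and 11.5 and 8.79 CPM in untreated skin. Psmb8 had 20.1 and 14.5 CPM with afatinib, 9.17 and 5.86 CPM with gefitinib, and 22.8 and 7.51 CPM in untreated skin. The untreated libraries differed at least 2-fold for Psmb8 and spanned the afatinib values. Psmb9 was above both untreated libraries with afatinib (0.82, adjusted p = 0.227). On the FPKM scale, the level of Psmb9 over that of its constitutive counterpart Psmb6 was 0.0574 and 0.0715 with afatinib, 0.0497 and 0.0325 with gefitinib, and 0.03 and 0.0274 in untreated skin. For Psmb8 over Psmb5 the ratio was 0.0551 and 0.0523 with afatinib, 0.028 and 0.0145 with gefitinib, and 0.0572 and 0.0222 in untreated skin. The constitutive Psmb5 and Psmb6 stayed far more abundant than Psmb8 and Psmb9 in every library. With afatinib Psmb6 stood at 247 and 120 FPKM, and Psmb9 at 14.2 and 8.6 FPKM. Psmb10, which is no member, came closer to its constitutive counterpart Psmb7. That ratio was 0.381 and 0.576 with afatinib, 0.36 and 0.283 with gefitinib, and 0.194 and 0.214 in untreated skin. For this pair all treated libraries lay above both untreated ones. The ratios were not tested. Tap1, a subunit of the peptide transporter, had changes of 0.36 with afatinib and 0.10 with gefitinib.

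Afatinib against gefitinib set the rashes side by side, at different doses. Afatinib levels were higher for most members, but no member passed, as no gene did among the 16398 (0% in each direction). Of the 36 members 35 had a positive log2 fold change, with a median of 0.75 against 0.04 for all genes. Both afatinib libraries lay above both gefitinib libraries for 25 members (69.4%), where 17.1% of all genes did, and 0 lay below, where 19.9% of all genes did. With library size only 23 members lay above and 0 below, where 11.9% and 14.5% of all genes did. With the size factors of DESeq2 these counts were 24 and 0, where 15.6% and 22.4% of all genes did. Without afatinib library 1 the median was 0.53 with 33 of 37 tested members positive, and without afatinib library 2 it was 0.96 with 35 of 36.

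The 95% interval of the difference lay above 0 for 8 members, at unadjusted p below 0.05, before any adjustment. These were Ifit1 (2.51, interval 1.25 to 3.77), Ifit3 (1.49, 0.55 to 2.43), Herc6 (1.32, 0.36 to 2.29), Gbp5 (1.19, 0.23 to 2.16), Irf7 (1.12, 0.24 to 2.01), Ifi27 (0.91, 0.02 to 1.80), Irf1 (0.77, 0.06 to 1.48) and Gbp2 (0.68, 0.01 to 1.35). Adjusted p ran from 0.787 to 0.981 over the 36 members in edgeR. Among all genes 946 had an unadjusted p below 0.05; DESeq2 called 19 genes higher, including Ifit1 (2.49, adjusted p = 0.00771), and 12 lower, and limma-voom called 0.

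The interferon genes themselves were at or near 0 counts. Of 12 listed, 11 were in the files and none passed the filter on low counts; Ifna1 was not analysed here. Ifna2, Ifna4, Ifna11, Ifna16l1, Ifnb1, Ifne, Ifng, Ifnl1 and Ifnl3 had 0 counts in all 6 libraries, which allows up to 3 counts, or 0.116 to 0.207 CPM, in a library. Ifna5 had 2 counts in afatinib library 1 and 1 in untreated library 2. Ifnk, the interferon kappa gene, had 0 and 14 counts with afatinib, 2 and 0 with gefitinib, and 0 and 0 in untreated skin. At this depth no difference in interferon transcripts was detectable.

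Of 15 receptor and proximal signalling genes listed, 14 were tested. With gefitinib 2 of the 14 rose (where 12.3% of all genes passed upward) and 1 fell (where 5.45% passed downward). With afatinib 0 passed (where 3.6% of all genes passed upward and 0.372% downward), and 5 had an unadjusted p below 0.05. Without afatinib library 1, Ifnlr1 (2.30, adjusted p = 0.0107) and Ptpn2 (0.89, adjusted p = 0.0386) passed as higher with afatinib. Ifnlr1, the specific chain of the interferon lambda receptor and an epithelial gene, had 4.74 and 9.79 CPM with afatinib, 9.997 and 10.02 CPM with gefitinib, and 2.28 and 1.69 CPM in untreated skin. It rose with gefitinib (2.33 ± 0.467, adjusted p = 0.0207) and stood at 1.88 ± 0.463 with afatinib (adjusted p = 0.0696), where it passed in DESeq2 (0.00627), with library size only (0.0445) and with no filter (0.00842). Ptpn2, a phosphatase that restrains JAK and STAT proteins, had 25 and 32.6 CPM with afatinib, 34.1 and 39.4 CPM with gefitinib, and 17.2 and 18 CPM in untreated skin, and rose with gefitinib (1.07 ± 0.247, adjusted p = 0.0305). Jak1, the kinase shared by all interferon receptors, had 99.9 and 90.5 CPM with afatinib, 64.7 and 52.2 CPM with gefitinib, and 123 and 147 CPM in untreated skin, and fell with gefitinib (−1.21 ± 0.26, adjusted p = 0.0251), though not with library size only (−0.52, adjusted p = 0.305). Each of these calls was lost when any of the gefitinib or untreated libraries was left out. The other receptor chains did not pass: with afatinib and gefitinib the changes were −0.32 and −0.61 for Ifnar1, −0.41 and −0.41 for Ifnar2, −0.75 and −0.90 for Ifngr1, −0.05 and −0.15 for Ifngr2, and 0.52 and 0.16 for Il10rb.

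Upstream of interferon, 15 of 18 listed genes of nucleic acid sensing were in the files and 14 were tested. With gefitinib 0 rose and 2 fell: Mavs, the mitochondrial adaptor of RIG-I and MDA5 (−1.39 ± 0.334, adjusted p = 0.0333), and Tlr8, an endosomal RNA receptor (−3.58 ± 0.913, adjusted p = 0.0388, at counts of 20 and 33 with afatinib, 6 and 1 with gefitinib, and 38 and 16 in untreated skin). Of all genes 12.3% passed upward and 5.45% downward with gefitinib. With afatinib 0 of the 14 passed (where 3.6% of all genes passed upward and 0.372% downward), and 3 had an unadjusted p below 0.05. Without afatinib library 1, Mavs passed as lower (−1.44, adjusted p = 0.0101) and Irf8 as higher with afatinib (2.38, adjusted p = 0.0126). Irf8 also passed with afatinib in DESeq2 (adjusted p = 0.00161), with library size only (0.0362) and with no filter (0.00206). Irf8, a myeloid transcription factor, rose for the mean of both drugs (1.55, adjusted p = 0.0439), with 11 and 20.1 CPM with afatinib, 9.72 and 6.74 CPM with gefitinib, and 4.77 and 2.97 CPM in untreated skin. This call was lost when afatinib library 2 or any of the gefitinib or untreated libraries was left out. The falls of Mavs and Tlr8 were not called with library size only (−0.71 and −2.85, adjusted p = 0.152 and 0.0686), nor when any of the gefitinib or untreated libraries was left out.

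A wider list of 51 other interferon-induced genes had 44 in the files and 40 tested. With afatinib 2 rose and 0 fell, though Tnfsf10 passed as lower without afatinib library 1 (−1.17, adjusted p = 0.0334) and in DESeq2 (−1.01, adjusted p = 0.0341). Ifitm1, which blocks fusion of enveloped viruses, had 43.5 and 39.0 CPM with afatinib, 23.6 and 34.0 CPM with gefitinib, and 11.7 and 15.3 CPM in untreated skin. Slfn4, a Schlafen gene of myeloid cells in mice, had 40.2 and 87.3 CPM with afatinib, 22.3 and 26.3 CPM with gefitinib, and 8.58 and 10.9 CPM in untreated skin. Both genes were clear of untreated skin in all 4 treated libraries, with log2 fold changes of 1.61 ± 0.285 and 2.71 ± 0.401 for afatinib (adjusted p = 0.0368 and 0.0308). With gefitinib Ifitm1 rose (1.09 ± 0.282, adjusted p = 0.0399) and 4 genes fell: Tnfsf10, the death ligand TRAIL (−2.24 ± 0.284, adjusted p = 0.0105), Trim5 (−1.21), which restricts retroviral capsids in primates, and the GTPases Igtp (−1.65) and Irgm (−1.53). Tnfsf10 had 24.7 and 18.3 CPM with afatinib, 9.96 and 7.48 CPM with gefitinib, and 39.6 and 42.8 CPM in untreated skin. Of the 40 genes 2 rose and 0 fell with afatinib, where 3.6% and 0.372% of all genes did. With gefitinib 1 rose and 4 fell, where 12.3% and 5.45% of all genes did. The median of the 40 was 0.23 with afatinib, against 0.09 for all genes, and −0.39 with gefitinib, against 0.04. Both afatinib calls were lost in limma-voom. In a fit of the afatinib and untreated groups alone they were lost too (adjusted p = 0.0746 for Ifitm1 and 0.0665 for Slfn4). They were also lost when any of the gefitinib or untreated libraries was left out, and that of Ifitm1 without afatinib library 2. The gefitinib call of Ifitm1 was lost in limma-voom (adjusted p = 0.0555), and when a gefitinib library (0.0807 and 0.264) or an untreated library (0.203 and 0.139) was left out. The fall of Tnfsf10 with gefitinib was lost without gefitinib library 2 or either untreated library. Those of Trim5, Igtp and Irgm were lost when any of the gefitinib or untreated libraries was left out. With library size only Tnfsf10 still fell with gefitinib and the other 3 did not, and the count of genes lower with gefitinib ran from 0 to 10 over the alternatives.

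Of 21 MHC class I genes listed, 19 were in the files and 17 tested. With gefitinib 0 rose and 2 fell: RT1-S3, a class I gene (−1.74 ± 0.431, adjusted p = 0.0361), and Erap1, a peptide-trimming aminopeptidase (−0.93 ± 0.221, adjusted p = 0.0317); neither was called with library size only (−1.03 and −0.25, adjusted p = 0.162 and 0.641). Of all genes 12.3% passed upward and 5.45% downward with gefitinib. With afatinib 0 of the 17 passed (where 3.6% of all genes passed upward and 0.372% downward), with 1 at an unadjusted p below 0.05. Both gefitinib calls were also lost without gefitinib library 2 or either untreated library, and that of Erap1 without gefitinib library 1. RT1-S3 belongs to a family of near copies, and the counting could have split its reads.

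Markers of cells that make or answer interferon moved between the libraries beside the members. Of 11 neutrophil markers, all in the files, the summed level was 1934 and 1716 CPM with afatinib, 738 and 1284 CPM with gefitinib, and 14.3 and 13.3 CPM in untreated skin. Of 9 tested, 4 rose with each drug, where 3.6% of all genes did with afatinib and 12.3% with gefitinib. S100a8 and S100a9, which inflamed keratinocytes also make, gave most of that sum, and Elane had 1 and 5 counts with afatinib, 0 and 0 with gefitinib, and 1 and 0 in untreated skin. The 14 T and NK cell markers summed to 30.9 and 24.4 CPM with afatinib and 15.6 and 11.9 CPM with gefitinib. In untreated skin they summed to 19.0 and 9.25 CPM. Among 10 tested, 1 rose with each drug, where 3.6% of all genes did with afatinib and 12.3% with gefitinib. Gzmb was at 0 in all gefitinib and untreated libraries and Ncr1 in both untreated ones. The 10 macrophage markers summed to 408 and 176 CPM with afatinib, 251 and 143 CPM with gefitinib, and 353 and 219 CPM in untreated skin, with Marco at 0 in all 6 libraries. The 9 endothelial markers in the files summed to 353 and 301 CPM with afatinib, 264 and 88.8 CPM with gefitinib, and 567 and 477 CPM in untreated skin. With gefitinib 4 of the 9 fell, where 5.45% of all genes did. Among the 9 keratinocyte markers, 5 rose with gefitinib and 1 with afatinib. Hair shaft markers rose for 9 of 9 genes with gefitinib and for 5 with afatinib. The shares of all genes that rose were 12.3% with gefitinib and 3.6% with afatinib. Of the plasmacytoid dendritic cell markers 9 of 11 were in the files, and their sum was mostly Cox6a2, also a muscle gene. Among 7 tested, 1 rose with each drug, where 3.6% of all genes did with afatinib and 12.3% with gefitinib. Siglech, the defining marker, had 2 counts in gefitinib library 1 and 0 in the other 5 libraries. The 8 fibroblast markers summed to 8849 and 3233 CPM with afatinib, 6117 and 1216 CPM with gefitinib, and 21215 and 10074 CPM in untreated skin, and all 8 had negative changes with gefitinib (median −1.45), where 0 passed. For afatinib against gefitinib the change was positive for 10 of 10 tested T and NK cell markers (median 1.10), 9 of 9 macrophage (0.55) and 9 of 9 endothelial markers (0.85). It was also positive for 8 of 8 fibroblast (0.68) and 11 of 11 muscle markers (0.79), as for 35 of the 36 members. Positive changes were fewer among neutrophil (7 of 9, median 0.93), plasmacytoid dendritic cell (6 of 7, 0.26), keratinocyte (4 of 9, −0.24) and hair shaft markers (1 of 9, −0.89). Of all genes tested 53.2% had a positive change, and 0 of the markers passed. The muscle markers summed to 152583 CPM in afatinib library 1 and 33899 CPM in afatinib library 2, against 33781 and 68858 CPM with gefitinib. In afatinib library 2 the fibroblast and macrophage sums also lay within the gefitinib range. The T and NK cell and endothelial sums of that library lay above it. The part of these cell types in the results was not tested.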

How the data were processed

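RNA from flash-frozen rat back skin was sequenced as TruSeq libraries. The authors deposited read counts per gene, with FPKM beside them, and the submitters' processing notes list featureCounts 1.5.0-p3, HISAT2 2.0.5 and DESeq2 1.16.1. The sources used here do not give the build, annotation or strand setting. The deposited FPKM divide counts by length and by a factor proportional to DESeq2 size factors.

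The counts (17206456 to 22086673 per library, 34225 loci) were filtered with filterByExpr, scaled by TMM and fitted with edgeR 4.0.16 (R 4.3.3, limma 3.58.1), with 1 term per group over 6 libraries and 3 residual degrees of freedom. P-values were adjusted by Benjamini-Hochberg over 16398 genes, with the script tested on simulated data. Alternatives were other scalings, other filters, DESeq2 1.42.0, limma-voom, a replicate block, 2 groups alone and each library left out. The member and gene lists were chosen with earlier results of these data known. Values in every library are given for members that passed, for the 2 highest by FPKM in each role and for others of interest chosen after their values were seen. From the other pathway lists, genes that passed are named, at most 4 per comparison. Cell type markers that passed are counted and not named. FPKM compare levels between genes and CPM compare libraries within a gene.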

Additional observations from a re-analysis of the deposited data

How the results depend on the processing

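With library size only, 0 members were called lower with gefitinib and 0 for the mean of both drugs, and the member medians were 0.119 with gefitinib, 0.63 with afatinib and 0.359 for the mean, where the medians of all genes were 0.726, 0.706 and 0.716. Members called lower with gefitinib numbered 4 without a filter, 3 in DESeq2, 0 in limma-voom and 4 in a fit of the 2 groups alone, and limma-voom called 0 lower for the mean. DESeq2 called 2 members higher with afatinib (Ifit1 and Ifit3) and 1 higher with afatinib than with gefitinib (Ifit1). Leaving out each library gave 0 to 1 members higher with gefitinib, 0 to 4 lower with gefitinib, 0 to 1 higher with afatinib, and 0 to 1 higher and 0 to 3 lower for the mean. The member medians then ran from −0.71 to −0.418 with gefitinib, from −0.0696 to 0.3 with afatinib, from −0.403 to −0.0579 for the mean, and from 0.527 to 0.964 for afatinib against gefitinib. The cause of these shifts was not tested.

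Libraries of the same number share only that number, with correlations of their deviations of −0.174, 0.0331 and 0.0374 between the groups. The replicate block left the member calls as they were (Ifit1 higher with each drug and for the mean, Ifit2 lower with gefitinib and for the mean) and gave member medians of −0.568 with gefitinib, 0.036 with afatinib, −0.28 for the mean and 0.749 for afatinib against gefitinib. Over all genes it called 337 higher and 32 lower with afatinib, against 591 and 61 without it. Among the other lists the block ended the gefitinib calls of Ifitm1 (adjusted p = 0.0514), Irgm (0.0622) and Erap1 (0.051). It gave a gefitinib call for Slfn4 (1.33, adjusted p = 0.0387), which the main fit did not. Slfn4 was also called higher with gefitinib in DESeq2 (1.28, adjusted p = 0.02) and with no filter (1.34, 0.0058). The same was seen with library size only (1.99, adjusted p = 0.035) and in 2 groups alone (1.33, 0.0111). The block ended the calls of Jak1, Ptpn2, Irf8, Trim5 and RT1-S3 for the mean of both drugs.

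Counts over all genes moved too. With afatinib DESeq2 called 1494 higher and 498 lower and limma-voom 32 and 2, and without afatinib library 1 the counts were 2302 and 1351. With gefitinib DESeq2 called 2072 lower, library size only 191, and without untreated library 1 there were 7 higher and 3 lower. With 2 libraries a group and 3 residual degrees of freedom, leaving out an untreated library ended nearly all calls. Members at a few counts were poorly measured at this depth. Oas2 and Oas3 were too low for a test, and Zbp1 was tested with an SE above 1 against untreated skin and did not pass.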
